A study of Homo sapiens with 30 samples.

Results

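Antisense long non-coding RNAs are transcripts without a known protein product that are read from the DNA strand opposite to a named gene, and the human nomenclature gives them that gene's symbol followed by AS and a number. The genes described here are the rows of the deposited count table whose symbol ends in this way and whose mean level over the 30 libraries was at least 0.5 CPM (a gene's count divided by the total of its library and scaled to a common depth). This rule kept 326 of the 1809 rows with an antisense symbol, in a table of 60675 gene rows. They were thus selected on the level over all libraries and on the symbol, which is a description with no test. DNMBP-AS1, DDX11-AS1 and TRG-AS1 lay just inside the limit at 0.501, 0.501 and 0.507 CPM, and VIM-AS1, ZNF252P-AS1 and CEACAM16-AS1 lay just outside it at 0.499, 0.496 and 0.494 CPM. At the same level the table held 143 intergenic RNAs with a LINC symbol, 135 divergent transcripts with a symbol ending in DT and 12762 protein-coding genes, which serve as comparison classes.

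The RNA came from A549, a human non-small cell lung carcinoma line grown in RPMI medium with serum. The cells received for 24 h an ethanol extract of a Korean tonifying formula or the DMSO vehicle. The formulas were Sibjeondaebo-tang, Palmul-tang, Samul-tang and Sagunja-tang, each at 20 µg/mL (low dose), 100 µg/mL (medium dose) and 500 µg/mL (high dose). Sibjeondaebo-tang and Palmul-tang had 3 libraries per dose, Samul-tang 2 (replicates 2 and 3 in the labels), Sagunja-tang 1 (replicate 3), and the vehicle 3, which makes 13 groups. Sibjeondaebo-tang is made of the herbs of Palmul-tang with further ones, and Palmul-tang joins the herbs of Samul-tang and Sagunja-tang. The sample labels give the vehicle as 0.1% DMSO and the series text gives 2%. All libraries come from this 1 cell line, and the labels do not say whether replicates were separate cultures, so p-values measure the spread between these libraries only.

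An antisense transcript can begin near the start of its sense partner and run away from it or across it, or begin inside or behind the partner and run back through its exons. Some are known to act on the partner in place, by recruiting chromatin regulators to the shared locus or by pairing with the sense RNA, and others act elsewhere in the cell, for example by binding microRNAs or proteins. Many are rapidly turned over in the nucleus by the RNA exosome, and their transcription is often ended early by the Integrator and polyadenylation factors. In lung carcinoma cells, members such as AGAP2-AS1, SBF2-AS1 and ZEB1-AS1 have been studied for effects on growth and invasion.

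The totals per library ran from 23986637 to 35159898 counts. The A549 identity was clear from KRT8 at 3350 to 4400 CPM and AKR1B10 at 3528 to 4620 CPM in every library, while of the 9 markers of leukocytes, endothelium and fibroblasts only CD14, at 1.96 to 3.29 CPM, and COL1A1, at 1.05 to 2.60 CPM, exceeded 0.5 CPM. PECAM1 was at 0.0937 to 0.433 CPM, PDGFRB at 0.0282 to 0.298 CPM, PTPRC at 0 to 0.226 CPM and COL1A2 at 0 to 0.167 CPM. CD3E, CDH5 and VWF had medians of 0 and maxima of 0.0408, 0.0315 and 0.0743 CPM. In 8 libraries (the 3 of the vehicle, replicate 2 of Samul-tang at every dose, and the high and medium doses of Sagunja-tang) 3 unnamed lincRNA rows were each at 1101 to 1445 CPM, against 192 to 473 CPM in the other 22. This split runs through the Samul-tang replicates and between the vehicle and most extracts, and its part in those comparisons was not tested. It does not run through Sibjeondaebo-tang or Palmul-tang, whose 18 libraries are all on one side. The library kit kept the strand of the RNA, but whether the counting used the strand is not given in the sources used here. Here, exons of 268 of the 326 antisense RNAs overlap an exon of a gene on the other strand in GENCODE 29 (GRCh38), and exons of 36 overlap one on their own strand. Without strand in the counting, reads from such stretches cannot be told apart. The 54 antisense RNAs with no exon overlap at all are therefore given beside the main results.

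Most of these RNAs were scarce. Their mean level had a median of 1.72 CPM with quartiles of 0.879 and 3.76 CPM, and 31 reached 10 CPM. The 5 most abundant held 20.8% of the summed level. FGD5-AS1 led at 88.1 CPM, followed by OIP5-AS1 at 82.4 CPM, the human counterpart of the zebrafish and mouse Cyrano RNA, which binds the microRNA miR-7. GABPB1-AS1, whose partner encodes the beta subunit of the transcription factor GABP, had 54.0 CPM, OTUD6B-AS1 28.0 CPM and EPB41L4A-AS1, a host of a small nucleolar RNA, 26.9 CPM. By their position, 204 of the 326 have an annotated transcript start within 1000 bases of a start of the partner on the other strand. Another 85 overlap exons of the partner with starts farther apart, 24 overlap only its gene body and 6 overlap nothing of it. FAM131B-AS2 lies on the partner's strand in this annotation. The remaining 6, which include HOXA-AS2, HOXA-AS3 and HOXB-AS3 of the HOX clusters, are named after a cluster or an older symbol and have no partner row.

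The summed level of the 326 RNAs was lowest at the high dose of Sibjeondaebo-tang. It was 1393 ± 18.3 CPM at the low, 1351 ± 13.9 CPM at the medium and 1155 ± 15.9 CPM at the high dose of this formula (SD, n = 3 each). The 3 high-dose libraries ran from 1142 to 1173 CPM. All 27 other libraries were above that range: Samul-tang at the high dose came nearest, with 1307 ± 25.7 CPM (n = 2), Palmul-tang at the high dose had 1352 ± 29.6 CPM (n = 3) and the vehicle had 1350 ± 31.6 CPM (n = 3). Sagunja-tang, with a single library per dose and therefore no test, had 1356, 1345 and 1321 CPM at the low, medium and high dose. Without the 5 most abundant RNAs, the sum was 900 ± 16.3 CPM at the high dose of Sibjeondaebo-tang and 1096 ± 14.6 CPM at its low dose. The separation was not particular to the antisense RNAs. At the high dose of Sibjeondaebo-tang the LINC RNAs summed to 555 to 588 CPM, against 620.2 CPM or more in all 27 other libraries. The divergent transcripts summed to 317 to 330 CPM there, against 338.6 CPM or more in the others. The summed level of the sense partners was 20536 ± 81.5 CPM at the high and 20284 ± 139 CPM at the Sibjeondaebo-tang low dose. In bulk RNA, fewer cells that make a transcript and less of it per cell cannot be told apart.

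**Figure D1:**
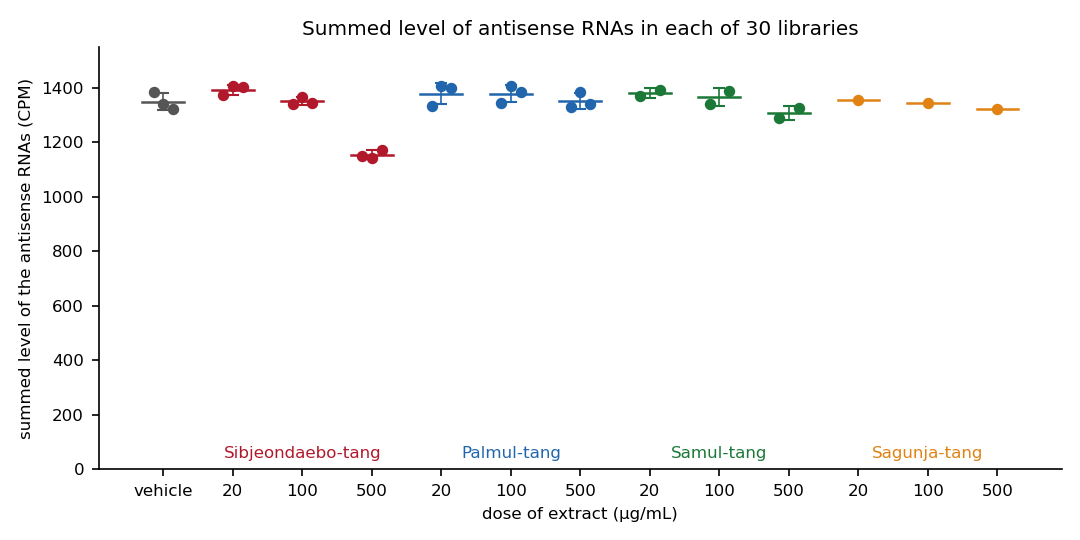
Summed level of the 326 antisense RNAs in CPM (vertical axis, from 0) in each of the 30 libraries, by formula and dose in µg/mL. Points are libraries, horizontal bars are group means and whiskers are SDs where a group has 2 or 3 libraries. The 3 libraries at 500 µg/mL of Sibjeondaebo-tang lie between 1142 and 1173 CPM, below all others.

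The first comparison asks how the antisense RNAs follow the dose of Sibjeondaebo-tang, and it uses no vehicle library. Between the high and the low dose, 106 of the 326 antisense RNAs fell and 9 rose (edgeR quasi-likelihood test, Benjamini-Hochberg adjusted p under 0.05 over 17701 genes). That is 32.5% falling and 2.76% rising, beside 19.9% falling and 18.5% rising among all genes tested. The median log2 change of the 326 was -0.25, against -0.01 for all genes tested, and 244 of the 326 changes were negative. A fall of 2-fold or more was seen in 25 of them, against 3.64% of all genes tested. Among the 54 without exon overlap, 13 fell and 1 rose, with a median of -0.20. No member drops below the limit of 0.5 CPM when the high-dose libraries are left out of the mean, and 4 further RNAs would then reach it.

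In 50 of the 326 the 3 high-dose libraries of Sibjeondaebo-tang were below all 27 other libraries of the series, beside 8.49% of all genes tested. Only KRT10-AS1 was above all 27 others, beside 5.14% of all genes tested. KRT10-AS1 is also 1 of the 3 members that GENCODE 29 classes as protein-coding. By group means, 132 of the 326 had their lowest level of the 13 groups at the high dose of Sibjeondaebo-tang and 19 their highest. Of the 298 sense partners that were tested, 79 had their lowest level in that group and 59 their highest.

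The largest fall was that of CCDC18-AS1 (ENSG00000223745), on the minus strand of GRCh38 chromosome 1 from 93262186 to 93346025. Its exons overlap 72 bases of the exons of CCDC18, a coiled-coil protein gene, and also exons of DR1. It was at 1.32, 1.08 and 1.29 CPM in the 3 high-dose libraries of Sibjeondaebo-tang, against 4.17, 5.86 and 6.28 CPM in its low-dose libraries. The groups were far apart, with a log2 change of -2.14 (SE 0.18, edgeR adjusted p = 1.73e-10). At the medium dose it had 3.29, 3.56 and 4.18 CPM, between the other doses. The vehicle libraries, at 3.62, 3.17 and 4.24 CPM, overlapped the medium dose and, at their highest, the lowest library of the low dose. In Palmul-tang it was at 4.23, 4.91 and 5.85 CPM at the high dose and 4.28, 6.20 and 5.70 CPM at the low dose, which overlap.

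ASMTL-AS1 (chromosome X, 1401769 to 1414028, plus strand) overlaps exons of ASMTL in the pseudoautosomal region that X and Y share. It had 0.463, 0.223 and 0.264 CPM at the Sibjeondaebo-tang high dose, against 0.992, 1.39 and 1.74 CPM at the low dose. This is a fall of 2.10 on the log2 scale (SE 0.31, adjusted p = 1.96e-06, edgeR). CTNS-AS1 (chromosome 17, 3655621 to 3658092, minus strand), antisense to the gene of the lysosomal cystine transporter, had 0.249, 0.371 and 0.297 CPM at the high dose, against 0.964, 1.14 and 1.32 CPM at the low dose. Its log2 change was -1.89 (SE 0.34, adjusted p = 3.98e-05, edgeR). Both RNAs are among the scarcer members, and in both the high-dose libraries were lower than every other library of the series.

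LMNTD2-AS1 and AP1G2-AS1 start within 1000 bases of their partners, which encode a lamin tail domain protein and a subunit of a clathrin adaptor. LMNTD2-AS1 (chromosome 11, 557595 to 560107, plus strand) had 0.855, 0.743 and 1.52 CPM at the high dose, against 3.37, 4.32 and 4.57 CPM at the Sibjeondaebo-tang low dose, a log2 change of -1.95 (SE 0.30). AP1G2-AS1 (chromosome 14, 23561097 to 23568073, plus strand) had 4.91, 3.79 and 4.22 CPM at the high dose, against 11.4, 14.5 and 14.2 CPM at the low dose, a log2 change of -1.63 (SE 0.17). The edgeR adjusted p was 2.55e-05 for LMNTD2-AS1 and 3.32e-07 for AP1G2-AS1. Their exons overlap those of the partner over 1097 and 2700 bases, and both partners fell as well.

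FMNL1-AS1 (chromosome 17, 45238028 to 45241734, minus strand), opposite the gene of a formin that builds actin filaments, had 0.890, 0.780 and 0.792 CPM at the high dose, against 2.32, 2.67 and 2.49 CPM at the Sibjeondaebo-tang low dose. VAC14-AS1 (chromosome 16, 70755098 to 70773251, plus strand), opposite the gene of the scaffold of the PIKfyve lipid kinase, had 0.890, 0.743 and 1.06 CPM at the high dose, against 2.55, 2.62 and 3.03 CPM at the low dose. SLC25A25-AS1 (chromosome 9, 128108581 to 128118693, minus strand), opposite the gene of a mitochondrial ATP-Mg/phosphate carrier, had 4.13, 5.57 and 4.22 CPM at the high dose, against 10.6, 13.8 and 14.0 CPM at the low dose. None of these groups overlapped. The log2 changes were -1.60 (SE 0.24) for FMNL1-AS1, -1.59 (SE 0.18) for VAC14-AS1 and -1.47 (SE 0.14) for SLC25A25-AS1. The largest edgeR adjusted p of the 3 was 5.91e-06.

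Among the abundant members, GABPB1-AS1 and TMEM147-AS1 stood out at the high dose of Sibjeondaebo-tang. GABPB1-AS1 (chromosome 15, 50354959 to 50372202, plus strand) had 30.2, 30.6 and 30.3 CPM at the high dose, against 59.6, 67.5 and 68.8 CPM at the low dose. TMEM147-AS1 (chromosome 19, 35540738 to 35546029, minus strand), opposite the gene of a membrane protein of the endoplasmic reticulum, had 12.9, 12.3 and 12.0 CPM at the high dose, against 25.9, 25.5 and 25.3 CPM at the low dose. Their levels were thus about 1 log2 unit lower, with changes of -1.10 (SE 0.07, edgeR adjusted p = 1.13e-11) for GABPB1-AS1 and -1.05 (SE 0.06, edgeR adjusted p = 9.68e-15) for TMEM147-AS1. The 4 other members among the 5 most abundant changed less than GABPB1-AS1. EPB41L4A-AS1 fell by 0.31 (SE 0.06) and OIP5-AS1 by 0.13 (SE 0.04) on the log2 scale, while FGD5-AS1 changed by 0.10 (SE 0.04, edgeR adjusted p = 0.0553) and OTUD6B-AS1 by -0.08 (SE 0.06, edgeR adjusted p = 0.371), neither past the threshold. The call of OIP5-AS1 was lost in 4 of 11 alternatives, which include leaving out replicate 1 or 2 of the high dose or replicate 3 of the low dose. FGD5-AS1 passed the threshold in 4 of its 11 alternatives.

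**Figure D2:**
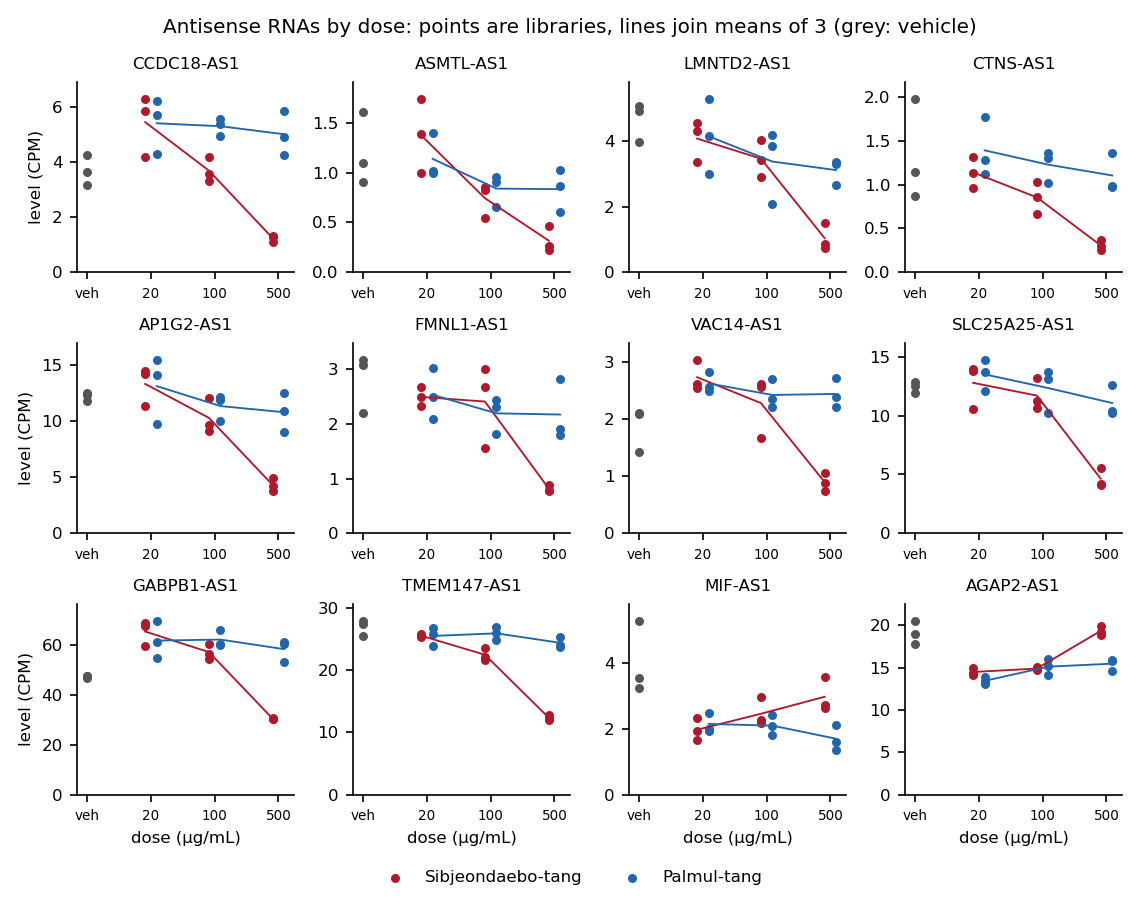
Levels in CPM (vertical axes, each from 0) of 12 antisense RNAs by dose in µg/mL, with Sibjeondaebo-tang in red, Palmul-tang in blue and the vehicle (veh) in grey. Points are libraries and lines join the means of 3. For the 10 RNAs from CCDC18-AS1 to TMEM147-AS1 the red points at 500 µg/mL lie below all other points of their panel, whereas MIF-AS1 and AGAP2-AS1 are higher at that dose than at 20 µg/mL of Sibjeondaebo-tang.

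The regions around the starts of 5 of these RNAs are shown because reading from such a region can run towards the antisense RNA and, from a nearby start on the other strand, towards its partner. The sequences are RefSeq promoters on GRCh38.p14 from 250 bases before to 50 bases after the annotated start, on the strand of the antisense RNA, and 250 of the 326 RNAs had one. FMNL1-AS1, ZNF561-AS1 and NUP153-AS1 are shown as large changes with a GENCODE 29 start near one of the partner, and TMEM147-AS1 and GABPB1-AS1 were added after their values were seen. Capitals mark the Sp1 box GGGCGG, in either orientation, and the cAMP response element TGACGTCA.
FMNL1-AS1, chr17:45241721-45242020, minus strand, fell: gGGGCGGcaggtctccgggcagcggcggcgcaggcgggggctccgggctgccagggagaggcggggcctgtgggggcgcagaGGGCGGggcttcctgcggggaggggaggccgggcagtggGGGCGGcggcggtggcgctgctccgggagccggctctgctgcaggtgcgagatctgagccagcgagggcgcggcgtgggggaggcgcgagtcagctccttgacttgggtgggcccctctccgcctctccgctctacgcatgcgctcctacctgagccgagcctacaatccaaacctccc
TMEM147-AS1, chr19:35545980-35546279, minus strand, fell: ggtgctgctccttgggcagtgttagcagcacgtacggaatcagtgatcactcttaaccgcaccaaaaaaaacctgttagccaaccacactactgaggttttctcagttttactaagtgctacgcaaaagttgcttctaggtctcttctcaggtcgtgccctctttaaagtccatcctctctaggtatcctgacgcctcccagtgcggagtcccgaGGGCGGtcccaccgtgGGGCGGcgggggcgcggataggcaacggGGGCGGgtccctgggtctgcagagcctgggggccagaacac
GABPB1-AS1, chr15:50353924-50354223, plus strand, fell: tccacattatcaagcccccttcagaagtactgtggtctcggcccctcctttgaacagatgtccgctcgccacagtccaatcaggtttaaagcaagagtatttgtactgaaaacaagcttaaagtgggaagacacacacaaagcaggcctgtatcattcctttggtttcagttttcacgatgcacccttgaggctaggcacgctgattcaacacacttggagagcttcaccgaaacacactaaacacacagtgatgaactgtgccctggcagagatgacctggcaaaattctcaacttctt
ZNF561-AS1, chr19:9621232-9621531, plus strand, rose: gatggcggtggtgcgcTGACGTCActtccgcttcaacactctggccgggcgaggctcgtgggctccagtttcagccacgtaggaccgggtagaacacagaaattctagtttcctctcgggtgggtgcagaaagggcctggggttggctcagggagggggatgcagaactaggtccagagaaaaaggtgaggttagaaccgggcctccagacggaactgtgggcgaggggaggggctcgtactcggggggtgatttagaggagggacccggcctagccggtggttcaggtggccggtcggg
NUP153-AS1, chr6:17705880-17706179, plus strand, rose: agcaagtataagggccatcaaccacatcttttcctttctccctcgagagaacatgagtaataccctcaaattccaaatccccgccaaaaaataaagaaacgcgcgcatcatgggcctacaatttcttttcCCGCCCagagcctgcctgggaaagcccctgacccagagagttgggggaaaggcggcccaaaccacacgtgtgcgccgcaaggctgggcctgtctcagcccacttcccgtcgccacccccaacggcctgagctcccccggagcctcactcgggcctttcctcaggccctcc

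The FMNL1-AS1 and TMEM147-AS1 windows each hold 3 Sp1 boxes, the NUP153-AS1 window holds 1, on the other strand, and the GABPB1-AS1 window holds none of these letters. The GABPB1-AS1 window is placed on the RefSeq start and ends before the GENCODE 29 start of this RNA. The ZNF561-AS1 window reaches back 250 bases to the RefSeq start of ZNF561 on the other strand, so that it spans the whole stretch between both starts. The RefSeq start of the partner lay 403 bases away for TMEM147-AS1, 795 for NUP153-AS1, 1024 for GABPB1-AS1 and 19885 for FMNL1-AS1, whose partner has an annotated start nearer by in GENCODE 29 alone. Over all 250 antisense promoters, 58.8% hold an Sp1 box, against 44.6% of the 27305 promoters in the table, and the median G+C content was 64.7%, against 58.3%. The Sp1 box was in 63.6% of the 77 promoters of RNAs that fell and in 56.3% of the 167 promoters of RNAs that did not pass. The ETS site CCGGAAGT was in 8 of the 77 and in 7 of the 167, and in 4.43% of all promoters. The NRF1 palindrome was in 2.8% of the antisense promoters and 1.36% of all promoters, the TATA box TATAAA in 5.2% and 11.9%, and the cAMP response element in 4% and 1.98%. The CCAAT box CCAAT was in 30.8% and 35.7%, the core GCGTG of the xenobiotic response element in 49.6% and 36.3%, and the core TGACNNNGC of the antioxidant response element in 18% and 13.6%. Each was searched on both strands, and a match is a description of the letters in this window and not a site of binding.

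The RNAs that rose with the dose of Sibjeondaebo-tang changed less than those that fell. MIF-AS1 (chromosome 22, 23894426 to 23898930, minus strand), opposite the gene of the cytokine macrophage migration inhibitory factor, had 3.56, 2.71 and 2.64 CPM at the high dose, against 1.93, 2.33 and 1.65 CPM at the low dose, a log2 change of 0.59 (SE 0.19, edgeR adjusted p = 0.0137). MIF itself rose by 0.42 (SE 0.06). In the vehicle, however, MIF-AS1 was at 5.26, 3.54 and 3.22 CPM, and against the vehicle it fell at the high dose of Sibjeondaebo-tang by 0.44 on the log2 scale (SE 0.18, edgeR adjusted p = 0.0444). AGAP2-AS1 (chromosome 12, 57726271 to 57728356, plus strand) had 19.2, 19.9 and 18.8 CPM at the high dose, against 14.2, 15.0 and 14.3 CPM at the low dose, a log2 change of 0.42 (SE 0.06, edgeR adjusted p = 1.04e-06). The vehicle libraries had 18.9, 20.5 and 17.8 CPM of AGAP2-AS1, so that the low dose and not the high one was apart from the vehicle.

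BAZ1A-AS1, opposite the gene of a subunit of the ACF chromatin remodeller, had 1.32, 1.11 and 1.68 CPM at the high dose, against 1.08, 0.711 and 1.08 CPM at the low dose (log2 change 0.53, SE 0.21, edgeR adjusted p = 0.0429). Its call was lost in 6 of the 11 alternatives, which include leaving out replicate 3 of the high dose. ZNF561-AS1, which starts beside a zinc finger gene, rose by 0.52 (SE 0.19), and NUP153-AS1, beside the gene of a nuclear pore protein, rose by 0.43 (SE 0.15). PRKCQ-AS1, KRT10-AS1 and HSD17B1-AS1 rose by 0.36, 0.25 and 0.20 on the log2 scale. Over the same alternatives the call was lost in 4 for ZNF561-AS1 and KRT10-AS1, in 3 for NUP153-AS1 and in 2 for MIF-AS1 and HSD17B1-AS1, and in none for AGAP2-AS1 and PRKCQ-AS1. Leaving out replicate 1 of the high dose ended the call of MIF-AS1, BAZ1A-AS1, NUP153-AS1, KRT10-AS1 and HSD17B1-AS1, and leaving out replicate 2 of that dose ended that of ZNF561-AS1. Among the low-dose libraries this held for replicate 1 with ZNF561-AS1, NUP153-AS1 and KRT10-AS1, for replicate 2 with BAZ1A-AS1 and KRT10-AS1, and for replicate 3 with MIF-AS1, ZNF561-AS1 and HSD17B1-AS1. Across all 326 RNAs the largest positive change was 0.65, and none rose 2-fold.

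Other long non-coding classes shared the direction. Of 143 LINC RNAs, 40 fell and 4 rose, with a median log2 change of -0.23, and of 135 divergent transcripts 38 fell and 4 rose, with a median of -0.16. Of 12762 protein-coding genes at or above 0.5 CPM, 2591 fell and 3170 rose, with a median of 0.03. Since calls depend on the counts behind a gene, protein-coding genes whose level lies between the quartiles of the antisense RNAs were counted separately. Among these 1506, 306 fell (20.3%) and 74 rose, with a median of -0.08. By their median, the 326 antisense RNAs thus sat lower than these protein-coding genes and close to the other non-coding classes. The 326 were not themselves cut to the range between the quartiles, so the shares are not at a matched level. The difference between classes was not tested.

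**Figure D3:**
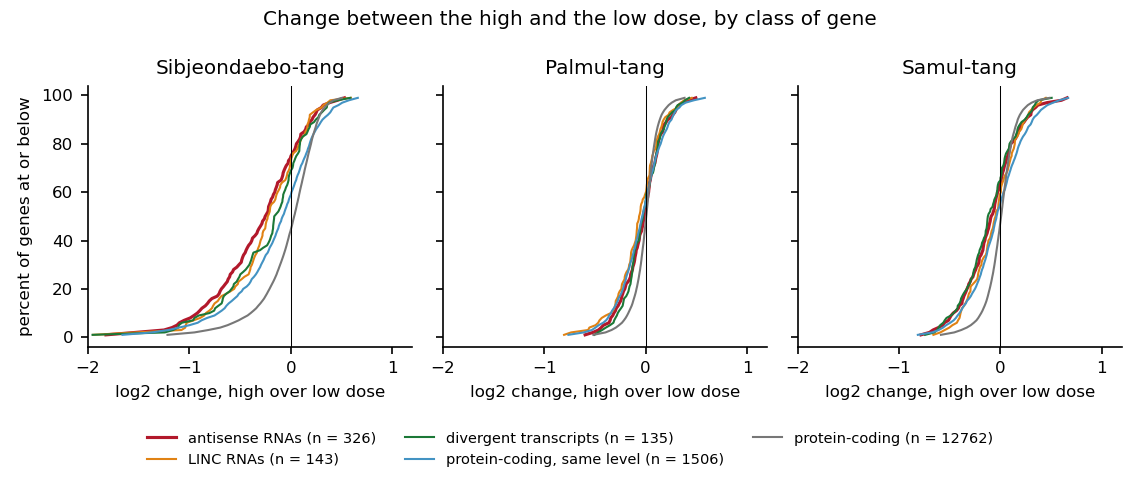
Cumulative percent of genes (vertical axis) at or below a given log2 change between the high and the low dose (horizontal axis) in Sibjeondaebo-tang, Palmul-tang and Samul-tang, from the 1st to the 99th percentile. In Sibjeondaebo-tang the curve of the antisense RNAs crosses 50% at -0.25 and that of the protein-coding genes at 0.03, while in Palmul-tang the medians are -0.01 and 0.01.

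Within the class, the median change was negative at each level and in each position, while the share that fell differed. The share of all genes tested that fell, 19.9%, stands beside these counts. Of 62 RNAs at 5 CPM or more, 32 fell and 5 rose (median -0.22), of 164 at 1 to 5 CPM, 57 fell and 3 rose (median -0.26), and of 100 under 1 CPM, 17 fell and 1 rose (median -0.25), which is below that share. The median changed little with level while the calls became fewer, as the counts behind each value did. By position, 58 of the 204 that start near the partner fell (median -0.22), 35 of the 85 with overlapping exons and starts apart (median -0.33), and 10 of the 24 that overlap only the gene body (median -0.37). Of the 6 that overlap nothing of the partner, 1 fell (median -0.18), of the 6 without a partner row, 2 fell (median -0.07), and FAM131B-AS2 did not pass. The RNAs that fell had longer exons in total, with a median of 3712 bases, against 2410 bases for those that did not pass and 2117 bases for the 9 that rose. Their level differed as well, with a median of 2.65 CPM, against 1.32 CPM for those that did not pass and 5.73 CPM for the 9 that rose. The part of level in the difference of exon length was not tested. Across the 326 RNAs, which share libraries and are not independent, the log2 change had a correlation of -0.23 with the logarithm of exon length, -0.01 with G+C content and -0.03 with level.

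The calls lay between the medium and the high dose. At the high against the medium dose of Sibjeondaebo-tang, 90 fell and 4 rose, beside 16.4% falling and 14.2% rising among all genes tested, and the median log2 change was -0.23. At the medium against the low dose none passed in edgeR, with 21 of the 326 at an unadjusted p under 0.05, beside 1108 of 17701 genes tested. By the adjusted p, 1 of all genes tested rose (0.00565%) and 1 fell (0.00565%) in that step, 0.0113% in all. The median there was -0.05, and DESeq2 gave no call either. At the medium against the low dose of Palmul-tang none passed in edgeR or DESeq2. By the adjusted p in edgeR, 0.00565% of all genes tested fell there and 0.0% rose. An unadjusted p under 0.05 (edgeR) was seen in 10 of the 326, beside 741 of 17701 genes tested. In the same step of Samul-tang none passed in edgeR, beside 0.0% of all genes tested, and 1 passed in DESeq2. There 13 of the 326 had an unadjusted p under 0.05 (edgeR), beside 988 of 17701 genes tested. CCDC18-AS1 and GABPB1-AS1 had medium-dose means between those of the other doses, as the plot by dose shows.

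Palmul-tang and Samul-tang gave few calls. Between the high and the low dose of Palmul-tang, DIP2C-AS1 was the only antisense RNA past the threshold, beside 2.02% of all genes tested that fell and 1.46% that rose (3.47% in all). By an unadjusted p under 0.05 (edgeR) there were 30 of the 326, beside 2492 of 17701 genes tested. DIP2C-AS1 had 0.760, 0.995 and 0.895 CPM at the high dose, against 1.19, 1.46 and 1.58 CPM at the low dose, a log2 change of -0.68 (SE 0.18, edgeR adjusted p = 0.0231). In Sibjeondaebo-tang the same RNA fell by 0.70 (SE 0.18), and the difference between both formulas was -0.02 (SE 0.26, edgeR adjusted p = 0.985). GENCODE 29 classes DIP2C-AS1 as protein-coding. The call was lost in 6 of its 10 alternatives, which include a fit to these groups alone and leaving out replicate 1 or 3 of the high dose or replicate 2 or 3 of the low dose. The median over all 326 RNAs in Palmul-tang was -0.01.

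In Samul-tang, with 2 libraries per dose, TMEM147-AS1 and GABPB1-AS1 fell and ZNF225-AS1 rose between the high and the low dose, beside 0.74% of all genes tested that fell and 0.604% that rose. TMEM147-AS1 had 19.8 and 21.1 CPM at the high dose, against 27.3 and 25.3 CPM at the low dose (log2 change -0.36, SE 0.07, edgeR adjusted p = 0.00281). GABPB1-AS1 had 43.4 and 46.9 CPM at the high dose, against 55.8 and 58.9 CPM at the low dose (log2 change -0.35, SE 0.09, edgeR adjusted p = 0.0453). These are among the RNAs that fell in Sibjeondaebo-tang, there by more. CCDC18-AS1 had 3.22 and 3.52 CPM at the high dose and 5.24 and 5.68 CPM at the low dose of Samul-tang, which missed the threshold (log2 change -0.70, SE 0.19, edgeR adjusted p = 0.0523). Without any 1 of the 4 libraries at most 1 RNA passed, and none passed without replicate 2 of either dose.

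ZNF225-AS1 was at 0.930 and 0.897 CPM at the high dose of Samul-tang and at 0 in both low-dose libraries, which is at least 8.70-fold higher against a floor of 3 counts per library. It was also at 0 in the third vehicle library and reached 1.52 CPM elsewhere. Its exons overlap those of ZNF224 and ZNF225, and the part of shared reads in these values was not tested. The median log2 change of the 326 RNAs in Samul-tang was -0.09, against 0.00 for all genes tested. For Sagunja-tang no test was possible: GABPB1-AS1 was at 53.7, 54.2 and 45.0 CPM and CCDC18-AS1 at 4.84, 4.54 and 4.24 CPM at the low, medium and high dose.

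At the matched dose of 500 µg/mL, 89 of the 326 RNAs were lower and 10 higher in Sibjeondaebo-tang than in Palmul-tang, beside 16.0% lower and 14.3% higher among all genes tested. The median difference was -0.24. CCDC18-AS1 was lower by 2.02 on the log2 scale (SE 0.19), CTNS-AS1 by 1.84 (SE 0.34), LMNTD2-AS1 by 1.56 (SE 0.31) and VAC14-AS1 by 1.43 (SE 0.19). TIPARP-AS1, beside the gene of an ADP-ribosyltransferase that the aryl hydrocarbon receptor induces, was at 0.641, 0.594 and 0.924 CPM in Sibjeondaebo-tang, against 0.395, 0.199 and 0.478 CPM in Palmul-tang (log2 difference 1.00, SE 0.32, edgeR adjusted p = 0.019). MIF-AS1 and SLC9A3R1-AS1 were higher by 0.80 (SE 0.20) and 0.76 (SE 0.21). The call of TIPARP-AS1 was lost by DESeq2 and without replicate 3 of Sibjeondaebo-tang or replicate 2 of Palmul-tang, and that of SLC9A3R1-AS1 without replicate 1 of Palmul-tang.

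The difference between both dose changes was tested as an interaction. It passed for 56 of the 326, of which 55 had a more negative change in Sibjeondaebo-tang than in Palmul-tang, beside 9.29% of all genes tested in that direction. MIF-AS1 alone passed in the other direction, beside 5.59% of all genes tested. Without replicate 1, 2 or 3 of any of the 4 groups, 42 to 58 passed.

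Against the vehicle, the high dose of Sibjeondaebo-tang lowered 100 of the 326 RNAs and raised 15, beside 21.8% and 20.0% of all genes tested, with a median log2 change of -0.27. The low dose of Sibjeondaebo-tang lowered 22 and raised 23, beside 18.2% and 18.6% (36.9% in all), with a median of 0.01. In Palmul-tang 33 were lower and 19 higher at the high dose, beside 18.1% and 19.0% (37.1% in all), and 25 were lower and 22 higher at the low dose, beside 17.8% and 18.2%. In Samul-tang 32 were lower and 8 higher at the high dose, beside 13.9% and 15.3%, and 16 were lower and 17 higher at the low dose, beside 15.1% and 15.6%. The total of 40 at the high dose of Samul-tang was 19 without its replicate 2 and 17 without its replicate 3, and that of 33 at its low dose was 7 without replicate 3 of that dose and 21 without replicate 1 of the vehicle. The total of 52 at the high dose of Palmul-tang was 31 without replicate 1 of the vehicle. All 6 comparisons share the 3 vehicle libraries, which carry another code in the labels than the extracts. In the unnamed lincRNA rows given above, the vehicle differs from Sibjeondaebo-tang, Palmul-tang and replicate 3 of Samul-tang. Replicate 2 of Samul-tang is on the side of the vehicle in these rows. The part of the code and of this split in the values was not tested. GABPB1-AS1 fell by 0.64 on the log2 scale (SE 0.08) at the high dose of Sibjeondaebo-tang and rose by 0.47 (SE 0.07) at its low dose, both against the vehicle, which had 47.6, 46.6 and 47.4 CPM.

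The second question is whether the sense partners moved with their antisense RNAs. A partner row was found for 320 of the 326 (316 distinct genes), of which 298 were abundant enough to be tested, giving 301 pairs. Between the high and the low dose of Sibjeondaebo-tang, 78 of the 298 partners fell (26.2%) and 69 rose (23.2%), beside 19.9% and 18.5% of all genes tested, with a median log2 change of -0.02. Of the 98 antisense RNAs that fell and had a tested partner, the partner fell in 30, rose in 27 and did not pass in 41. For the 203 other pairs the partner fell in 48 and rose in 42. Thus 30.6% of the partners of fallen RNAs fell, against 23.6% of the partners of the others, and 27.6% rose, against 20.7%. The antisense RNA lay below its partner's change in 205 of the 301 pairs, with a median difference of -0.21.

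**Figure D4:**
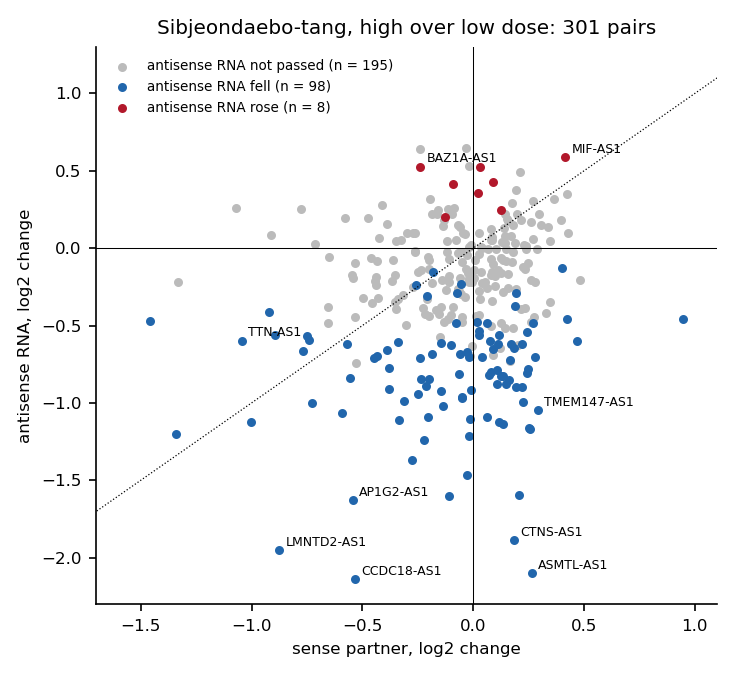
Log2 change between the high and the low dose of Sibjeondaebo-tang of the antisense RNA (vertical axis) and of its sense partner (horizontal axis) in 301 pairs, coloured by the call of the antisense RNA. The dotted line marks equal change. The RNAs that fell spread on both sides of a partner change of 0, and 205 of the 301 pairs lie below the dotted line.

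In AP1G2, LMNTD2, CCDC18 and TTN both RNAs of the pair fell. AP1G2 had 45.4, 51.1 and 51.4 CPM at the high dose, against 74.0, 70.7 and 70.7 CPM at the Sibjeondaebo-tang low dose, a log2 change of -0.54 (SE 0.07), where AP1G2-AS1 changed by -1.63. LMNTD2 changed by -0.88 (SE 0.17) and CCDC18 by -0.53 (SE 0.12). TTN-AS1, which overlaps 11381 bases of the exons of the titin gene, fell by 0.60 (SE 0.11), and TTN fell by 1.04 (SE 0.18). TTN was at 2.42, 2.60 and 1.75 CPM at the high dose, against 4.56, 4.52 and 4.81 CPM at the low dose. In this pair the partner fell by more than the antisense RNA, unlike in the other 3.

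In TMEM147, ASMTL, VAC14 and CTNS the partner rose while the antisense RNA fell. TMEM147 had 124, 121 and 116 CPM at the high dose, against 92.1, 97.7 and 104 CPM at the Sibjeondaebo-tang low dose, a log2 change of 0.29 (SE 0.06, edgeR adjusted p = 0.000529), with TMEM147-AS1 at -1.05. ASMTL rose by 0.26 (SE 0.06), VAC14 by 0.20 (SE 0.06) and CTNS by 0.18 (SE 0.05), each opposite to a fall of its antisense RNA by more than 1.5 log2 units. The exon overlap of these pairs is short, between 64 bases for VAC14-AS1 and 225 bases for ASMTL-AS1.

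In other pairs the partner did not pass. GABPB1 was at 24.3, 24.2 and 22.6 CPM at the high dose, against 23.9, 25.3 and 22.6 CPM at the Sibjeondaebo-tang low dose, a change of -0.02 (SE 0.06) beside -1.10 for GABPB1-AS1. SLC25A25 changed by -0.03 (SE 0.09) and FMNL1 by -0.11 (SE 0.08). Among the RNAs that rose, MIF-AS1 was the only one whose tested partner rose, BAZ1A-AS1 the only one whose partner fell (BAZ1A -0.24, SE 0.04), and in 6 the partner did not pass.

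Per base of annotated exon, the antisense RNA was usually the minor transcript. The ratio of its CPM per kilobase to that of its partner, averaged over the 13 groups, had a median of 0.165, lay under 0.1 in 115 pairs and over 1 in 66 of 301. TPT1-AS1 and PCBP1-AS1, opposite genes of very abundant mRNAs, had ratios of 0.0023 and 0.00174. AGAP2-AS1 by contrast had 149 times the level of AGAP2 and HSD17B1-AS1 13.4 times that of HSD17B1, both per kilobase. The ratio was lowest of the 13 groups at the high dose of Sibjeondaebo-tang in 103 of the 301 pairs and highest there in 23. For TMEM147-AS1 it was 0.041 at the high dose of Sibjeondaebo-tang and 0.104 at its low dose, and 0.1 and 0.106 at the high and the low dose of Palmul-tang. For CTNS-AS1 it was 0.0449 at the high dose of Sibjeondaebo-tang and 0.19 at its low dose, and 0.174 and 0.23 at the high and the low dose of Palmul-tang.

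Over the means of the 13 groups, antisense RNA and partner were weakly related. The Pearson correlation of log2(CPM + 0.1) had a median of 0.13 over the 301 pairs, was over 0.5 in 54 and under -0.5 in 21. These points share libraries, formulas and the vehicle, so the values are descriptions. Without the high dose of Sibjeondaebo-tang the median was 0.12, with 31 pairs over 0.5 and 12 under -0.5, and without the vehicle it was 0.09. The median was 0.24 in the 77 pairs with overlapping exons and starts apart. It was 0.12 in the 199 that start near each other, some of which, such as AP1G2-AS1 and its partner, also overlap in exons. AP1G2-AS1, TTN-AS1 and LMNTD2-AS1 had the highest correlations with their partners, at 0.94, 0.90 and 0.87. These dropped to 0.52, 0.45 and 0.58 without the high dose of Sibjeondaebo-tang. The exons of AP1G2-AS1, TTN-AS1 and LMNTD2-AS1 overlap those of their partners, and the part of shared reads in these correlations was not tested. EXTL3-AS1, ALDH1A3-AS1 and SMARCA5-AS1 had the lowest among pairs with both means at 1 CPM or more, at -0.74, -0.72 and -0.70. CSRP1-AS1, at 0.939 CPM, was lower still at -0.82, and it was at -0.81 without the vehicle and -0.71 without the Sibjeondaebo-tang high dose. It lies outside the rule and was chosen after its values were seen. Without that group EXTL3-AS1 was at -0.21, while ALDH1A3-AS1 and SMARCA5-AS1 kept -0.77 and -0.79. Without the vehicle, where SMARCA5-AS1 was at 2.32, 1.90 and 2.28 CPM, its correlation was -0.28.

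**Figure D5:**
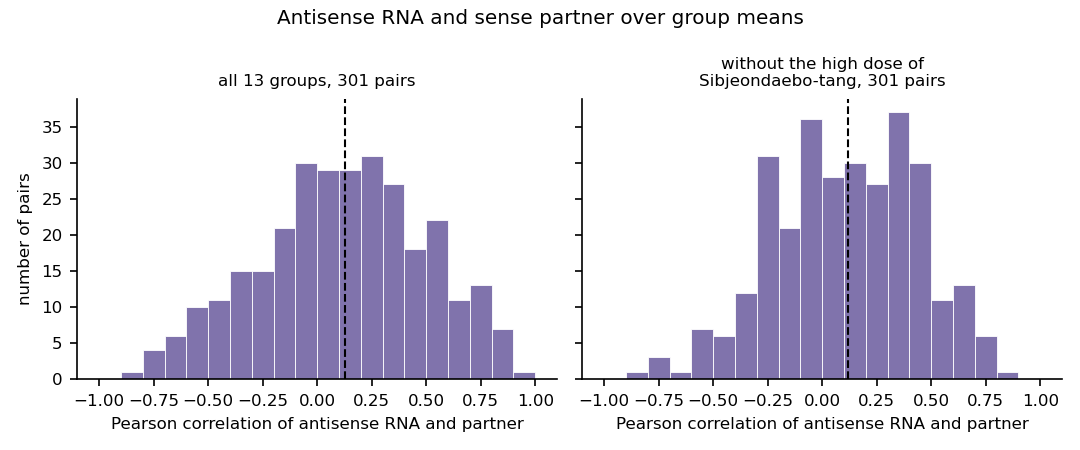
Number of pairs (vertical axis) by the Pearson correlation of antisense RNA and sense partner over group means of log2(CPM + 0.1) (horizontal axis), for all 13 groups on the left and without the high dose of Sibjeondaebo-tang on the right. The dashed lines mark the medians of 0.13 and 0.12. Fewer pairs lie beyond 0.5 and -0.5 on the right.

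Of 35 antisense RNAs listed for their frequent study in cancer cells, 24 were above the limit. The list was written with results of these data known. AGAP2-AS1, named above as studied in lung carcinoma cells, is not on it and rose in the comparison that follows. Between the high and the low dose of Sibjeondaebo-tang, 14 of the 24 fell and none rose by edgeR, with a median log2 change of -0.25, beside 19.9% of all genes tested that fell and 18.5% that rose. In the same comparison of Palmul-tang and of Samul-tang none passed in edgeR, beside 3.47% and 1.34% of all genes tested in either direction. GAS6-AS1, opposite the gene of a ligand of TAM receptors, had 3.85, 3.34 and 4.16 CPM at the high dose, against 6.83, 6.79 and 6.82 CPM at the Sibjeondaebo-tang low dose (log2 change -0.84, SE 0.12). TPT1-AS1, PCBP1-AS1, MCM3AP-AS1 and DLGAP1-AS2 fell by 0.85, 0.81, 0.63 and 0.60 on the log2 scale. The partners TPT1 and PCBP1 rose by 0.16 (SE 0.05) and 0.24 (SE 0.05). HOXB-AS3 fell by 0.94 (SE 0.27) and HOXA-AS2 by 0.37 (SE 0.10), whereas HOXA-AS3, at 0.64 ± 0.23 CPM at the high dose and 0.508 ± 0.16 CPM at the low dose (n = 3 each), did not pass. The call of HOXB-AS3 was lost without replicate 3 and that of HOXA-AS2 without replicate 1 of the high dose, each in 1 of 11 alternatives. MAPKAPK5-AS1, DLGAP1-AS1 and OIP5-AS1, which are among the 14, lost theirs in 7, 6 and 4 of the 11. Conversely, FGD5-AS1 passed in 4 alternatives, and SBF2-AS1 and TMPO-AS1 in 1 each. ZEB1-AS1, SBF2-AS1, TMPO-AS1, FOXD3-AS1, THAP9-AS1, SLC7A11-AS1, WDFY3-AS2 and NUTM2A-AS1 did not pass either, with log2 changes between -0.22 and 0.22. SLC7A11-AS1 is antisense to the cystine importer gene SLC7A11, which changed by 0.06 (SE 0.05).

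The machinery that ends and degrades such transcripts was read from the same fit, in which 18.5% of all genes tested rose and 19.9% fell. Of 13 genes of the exosome core, 2 rose and none fell between the high and the low dose of Sibjeondaebo-tang: EXOSC4 by 0.36 (SE 0.06) and EXOSC5 by 0.26 (SE 0.05). Of 16 genes of its nuclear cofactors and adaptors, 3 rose and 5 fell. ZFC3H1, a subunit of the PAXT complex that takes polyadenylated nuclear RNAs to the exosome, was at 28.0 ± 1.1 CPM at the high dose, against 56.9 ± 1.3 CPM at the low dose (SD, n = 3 each), a log2 change of -1.02 (SE 0.06, edgeR adjusted p = 6.88e-15). PABPN1, the nuclear poly(A)-binding protein of the same pathway, fell by 0.35 (SE 0.05). Of 15 genes of nonsense-mediated decay, 3 rose and 6 fell, with SMG1 down by 0.65 (SE 0.05) and SMG5 by 0.35 (SE 0.04). Of 17 genes of transcription termination and the Integrator, 7 rose and 3 fell. PCF11, which ends transcription at polyadenylation sites, fell by 0.47 (SE 0.05) and INTS1 rose by 0.26 (SE 0.05). In the same comparison of Palmul-tang and of Samul-tang none of these genes passed in edgeR, beside 3.47% and 1.34% of all genes tested. The medians of the 4 lists lay between -0.05 and 0.12 in Sibjeondaebo-tang, against -0.01 for all genes tested, and whether these genes bear on the antisense RNAs was not tested.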

How the data were processed

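The authors deposited expected counts per gene (estimated counts, which need not be whole) from RSEM 1.3.3, after FastQC 0.11.9, Trim Galore 0.6.5 and STAR 2.7.3a on GRCh38, per the submitters' processing notes. Neither the annotation nor the use of strand in counting is given in the sources used here. The table also holds 240 columns of other samples, which were not used. Gene symbols came from a table of Ensembl identifiers, and positions and exon overlaps from GENCODE 29.

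Expected counts were rounded. Genes were kept by filterByExpr (17701) and libraries scaled by TMM (factors 0.923 to 1.0515). In edgeR 4.0.16 under R 4.3.3, glmQLFit (robust) and glmQLFTest used the 13 groups of the 30 libraries, with 17 residual degrees of freedom. P-values were adjusted by Benjamini-Hochberg over all genes, with a threshold of 0.05. SE is the log2 change divided by the square root of F. CPM values of libraries and groups are TMM-scaled. The mean levels over the 30 libraries, and the limits set on them, use counts divided by the library total without this scaling. The test was also run on simulated data in which few genes changed, unlike in Sibjeondaebo-tang here, and the outcome is not given. Alternatives were RLE scaling, no filter, DESeq2 1.42.0, a fit restricted to the compared groups, a block for the replicate number, omission of single libraries, a limit of 1 CPM, and RNAs without exon overlap.

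The RNAs named were the 8 largest changes in each direction in Sibjeondaebo-tang and up to 4 in other comparisons (adjusted p under 0.05, no overlap of libraries), the 5 most abundant, the listed well-studied ones, and the 3 highest and lowest correlations among pairs with both means of at least 1 CPM. TMEM147-AS1 and GABPB1-AS1 in Sibjeondaebo-tang, FAM131B-AS2, and the comparison with all 27 other libraries were added once values had been seen. The members and lists were chosen with earlier results of these data known. Results on 1 withheld item are not reported here.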

Additional observations from a re-analysis of the deposited data

Results flagged for a closer look

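The dose change of 56 of the 326 antisense RNAs differed between Sibjeondaebo-tang and Palmul-tang by the interaction test (edgeR, adjusted p under 0.05). In either direction, 14.9% of all genes tested passed. Of the 56, 55 were more negative in Sibjeondaebo-tang, which is 16.9% of the 326, beside 9.29% of all genes tested. Among the RNAs named, the change was more negative in Sibjeondaebo-tang by 2.03 log2 units for CCDC18-AS1 (-2.03, SE 0.24), by -1.65 for ASMTL-AS1, -1.54 for CTNS-AS1, -1.53 for LMNTD2-AS1, -1.49 for VAC14-AS1, -1.37 for FMNL1-AS1, -1.34 for AP1G2-AS1 and -1.17 for SLC25A25-AS1. MIF-AS1 differed by 0.92 in the other direction (SE 0.28, edgeR adjusted p = 0.0214), with a change of 0.59 in Sibjeondaebo-tang and -0.33 in Palmul-tang. What sets these RNAs apart was not tested.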

How the results depend on the processing

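For Sibjeondaebo-tang at the high against the low dose, the other fits of the 326 RNAs gave 95 (DESeq2) to 118 (replicate block) calls beside 115, and 93 to 115 of the calls were shared with them. Leaving out 1 library gave 88 to 105 calls there, 69 to 85 against the medium dose, 68 to 89 against Palmul-tang, 92 to 107 against the vehicle and 42 to 58 for the interaction. It gave 0 to 1 for the medium against the low dose, 32 to 48 for the low dose of Sibjeondaebo-tang, 31 to 52 and 33 to 48 for the high and low dose of Palmul-tang, and 17 to 36 and 7 to 34 for those of Samul-tang, all 5 against the vehicle. The dose change of Palmul-tang gave 0 to 3 calls without 1 library and that of Samul-tang 0 to 1.

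Palmul-tang at the high against the low dose had 0 calls by DESeq2, 0 with only the groups compared, 3 without a filter and 3 with the replicate block. Samul-tang had 8 without a filter, 11 with only the groups compared and 6 with the replicate block, and 26 and 18 by DESeq2 for its high and low dose against the vehicle. For the medium against the low dose, no filter gave 1 call in Sibjeondaebo-tang and 1 in Samul-tang, where DESeq2 and the groups alone also gave 1. The share of all genes called in each of these other fits is not given here. The counts here and in the paragraph before thus show how calls depend on the fit, and no result about antisense RNAs as a class. Replicate numbers did not pair the libraries: same-numbered libraries had a median correlation of deviations of 0.00614 (-0.122 to 0.0886).

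Calls among the 54 RNAs without exon overlap follow, in either direction, with the percent of all genes tested in brackets. For the high dose of Sibjeondaebo-tang there were 14 against low (38.4%), 12 against medium (30.6%) and 12 against Palmul-tang (30.3%). There were also 14 against the vehicle (41.8%) and 5 for the interaction (14.9%). Its low dose gave 7 against the vehicle (36.9%). Palmul-tang gave 9 and 6 at the high and low dose (37.1% and 36.0%), also against the vehicle. Samul-tang gave 5 and 5 there (29.2% and 30.7%), and 0 for its dose change (1.34%). The counts are fewer than among the 326 by construction. At the high against the low dose of Sibjeondaebo-tang, 24.1% of the 54 fell and 1.85% rose, beside 19.9% and 18.5% of all genes tested. The median correlation of pairs was 0.117 when the Sibjeondaebo-tang high dose was left out and 0.093 without the vehicle.

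Log2 changes that turned sign were far from the threshold: without 1 library, FOXD3-AS1 ran from -0.076 to 0.175, NUTM2A-AS1 from -0.129 to 0.025, SLC7A11-AS1 from -0.355 to 0.017 and WDFY3-AS2 from -0.158 to 0.079, and WDFY3-AS2 was 0.004 without a filter. Most members have under 2 CPM, so that small changes of single RNAs were not detectable at this depth.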
